A study of Mus musculus with 24 samples.

Results

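Retinoid metabolism in mouse liver was followed through 8 genes: Cyp26a1, Rara, Rarb, Lrat, Rbp4, Dhrs3, Aldh1a1 and Rdh16. They are the rows of the liver mRNA count table that carry these symbols, 8 of 22429 genes, and all 8 passed the filter on low counts that left 12690 genes. The genes were picked with their levels in these libraries known, so their levels and fold changes are given as a description, without p-values.

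Polyadenylated RNA was sequenced from snap-frozen livers of male F1 hybrid mice (C57BL6J/FVBN), with 4 libraries in each of 6 groups. The mutant, Ercc1 d/-, carries a truncated (d) and a null allele of Ercc1, which encodes part of a DNA repair endonuclease, and is used as a model of premature ageing. Mutants were on 30% dietary restriction (DR) at 16 weeks of age, fed freely (ad libitum, AL) at 16 weeks, or fed freely at 7 weeks. Wild types (Ercc1 +/+) were on 30% restriction at 16 weeks, fed freely at 104 weeks, or fed freely at 16 weeks. There was no 7-week wild-type group, so age between 7 and 16 weeks was compared in the mutant alone. Restriction began at 7 weeks with 10%, rose by 10% each week and reached its full 30% at 9 weeks. Restricted mutants then received 1.6 g of food daily and restricted wild types 2.1 g daily, against 2.3 g for mutants and 3.0 g for wild types on free feeding. All groups shared the synthetic diet and received no food before collection on the last day. The Ercc1 alleles are present in all cells of the mutant, not in hepatocytes alone.

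The liver is the main store of vitamin A. Retinol is esterified by lecithin retinol acyltransferase (Lrat) for storage in stellate cells and leaves the liver bound to retinol-binding protein 4 (Rbp4). Retinol is oxidised to retinal by dehydrogenases such as Rdh16, a step that Dhrs3 reverses, and retinal is oxidised to retinoic acid by aldehyde dehydrogenases such as Aldh1a1. Retinoic acid activates the nuclear receptors Rara and Rarb, which bind DNA as dimers with RXR receptors, and it is cleared by the cytochrome P450 Cyp26a1. Cyp26a1 and Rarb are among the genes that retinoic acid itself is known to switch on, through response elements in their promoters.

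The promoters of the 8 genes were searched for elements of the kind that retinoic acid receptors bind. The search covered 250 bases before to 50 after each RefSeq transcript start (GRCm38.p6), on both strands. It looked for pairs of the hexamer AGGTCA or its variants (the variant AGTTCA, the variant GGGTCA or the variant GGTTCA) in the same direction, separated by 1, 2 or 5 bases. Such a pair with a 5-base spacer was found for Cyp26a1 and Rarb and in no window of the other 6 genes, and it occurs in 31 of 27025 genes (0.115%), or 0.0974% of 32851 windows. The Cyp26a1 element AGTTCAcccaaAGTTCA reads on the minus strand, and its base farthest upstream lies 32 bases before the start. The Rarb element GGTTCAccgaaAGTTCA reads in the direction of the gene and begins 53 bases before the start. The 250 bases before the start are shown here for both genes, 5′ to 3′ on the strand of the gene, with the hexamers of the repeat in capitals. For Cyp26a1 they are chr19:37697558-37697807 on the plus strand, and for Rarb chr14:16575477-16575726 on the minus strand.
Cyp26a1: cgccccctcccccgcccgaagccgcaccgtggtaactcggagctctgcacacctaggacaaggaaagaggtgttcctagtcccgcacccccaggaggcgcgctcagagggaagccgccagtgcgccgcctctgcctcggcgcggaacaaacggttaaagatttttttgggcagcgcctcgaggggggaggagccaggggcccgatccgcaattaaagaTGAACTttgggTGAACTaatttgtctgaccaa
Rarb: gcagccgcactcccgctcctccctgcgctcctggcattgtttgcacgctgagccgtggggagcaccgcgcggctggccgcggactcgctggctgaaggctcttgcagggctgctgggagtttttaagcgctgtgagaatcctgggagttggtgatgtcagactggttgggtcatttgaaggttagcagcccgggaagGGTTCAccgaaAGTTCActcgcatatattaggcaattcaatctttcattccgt
In the Cyp26a1 line the element is seen as its reverse complement. A match is a description of the letters. Pairs with a 1-base spacer occur in 0.222% of windows and pairs with a 2-base spacer in 0.268%, and none of the 8 genes had one. A single hexamer is common, in 43.7% of windows.

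**Figure D1:**
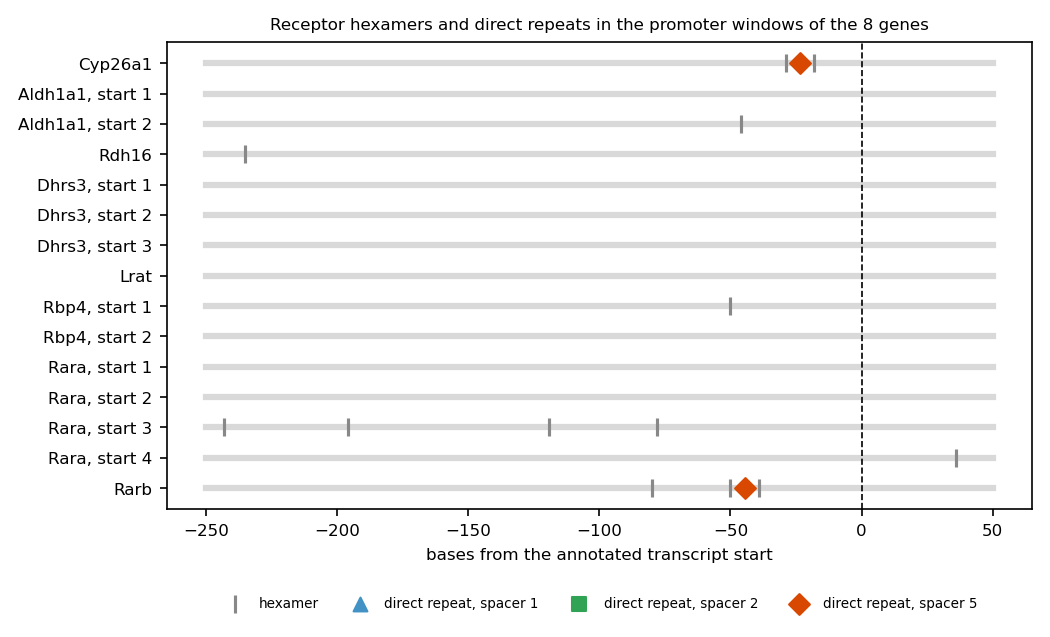
Position of receptor hexamers (grey ticks) and direct repeats (symbols) in each RefSeq promoter window of the 8 genes, in bases from the annotated transcript start. The only direct repeats are the 5-base-spacer pairs of Cyp26a1 and Rarb, both within 53 bases upstream of the start.

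Library totals were 13269792 to 20624803 counts. Albumin was the gene with the most counts in 24 of 24 libraries, and the summed level of 10 hepatocyte markers was 88266 to 168619 CPM (counts per gene scaled to library size). Ercc1 itself had 1.08 to 2.33 CPM in mutant and 2.06 to 4.46 CPM in wild-type libraries. Counts are per gene, so Ercc1 reads from the mutant alleles cannot be told from others. The pair of libraries most alike within a group still differed by more than counting noise.

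Cyp26a1 (ENSMUSG00000024987, chr19:37697798-37701536, plus strand, GRCm38) spanned the widest range of the 8 genes. Its group means differed 43.0-fold, highest in the restricted mutant and lowest in the 7-week mutant. In the restricted mutant the 4 libraries had 54.0, 29.9, 32.0 and 41.1 CPM, a mean of 39.2 ± 11.0 CPM (SD, n = 4). In freely fed mutants at 16 weeks they had 10.7, 14.6, 17.7 and 11.2 CPM (13.5 ± 3.26 CPM, SD, n = 4), and at 7 weeks 0.682, 1.05, 1.03 and 0.890 CPM (0.913 ± 0.170 CPM, SD, n = 4). The 7-week values rest on 13 to 19 counts per library.

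In wild types the restricted libraries had 13.4, 20.0, 13.7 and 10.1 CPM (14.3 ± 4.12 CPM, SD, n = 4). The 104-week libraries had 8.65, 10.9, 7.67 and 10.9 CPM (9.54 ± 1.64 CPM, SD, n = 4). The freely fed 16-week libraries had 2.06, 5.59, 5.45 and 2.26 CPM (3.84 ± 1.94 CPM, SD, n = 4), and formed a low pair and a high pair. These values rest on 33 to 91 counts per library. In the order of means, restricted mutants stood apart from the next group, restricted wild types. Restricted wild types, 16-week freely fed mutants and 104-week wild types overlapped with their neighbours. The 16-week freely fed wild types were below all of these without overlap, and the 7-week mutants were below them again.

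**Figure D2:**
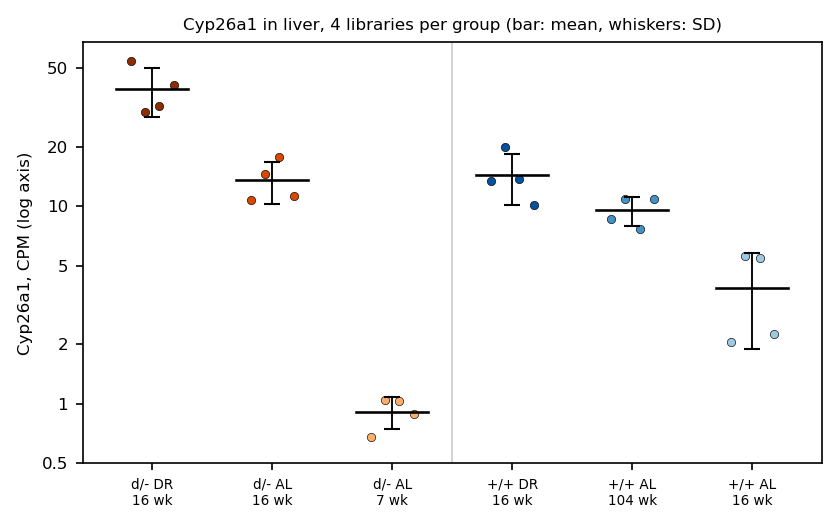
Cyp26a1 in CPM (log axis) in each library, with the mean and SD of 4 libraries per group, mutants left of the line and wild types right. The restricted mutants lie between 29.9 and 54.0 CPM and the 7-week mutants between 0.682 and 1.05 CPM.

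Cyp26a1 was higher without overlap in the first group of each of the 6 comparisons of paired groups. Its log2 fold change was 1.82 ± 0.29 (SE) for mutant over wild type on free feeding and 1.46 ± 0.27 on restriction. It was 1.31 ± 0.29 for 104-week over 16-week wild types and 3.89 ± 0.33 for 16-week over 7-week mutants. Restriction over free feeding gave 1.90 ± 0.29 in wild types and 1.53 ± 0.27 in mutants. The step between 7 and 16 weeks in the mutant was 14.8-fold, at rank 4 from the top among 12690 genes. The effect of diet in mutants minus that in wild types was -0.36 ± 0.38 (SE), smaller than its own error. Several of these comparisons share the freely fed 16-week wild types or the freely fed 16-week mutants, so they are not independent of each other.

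**Figure D3:**
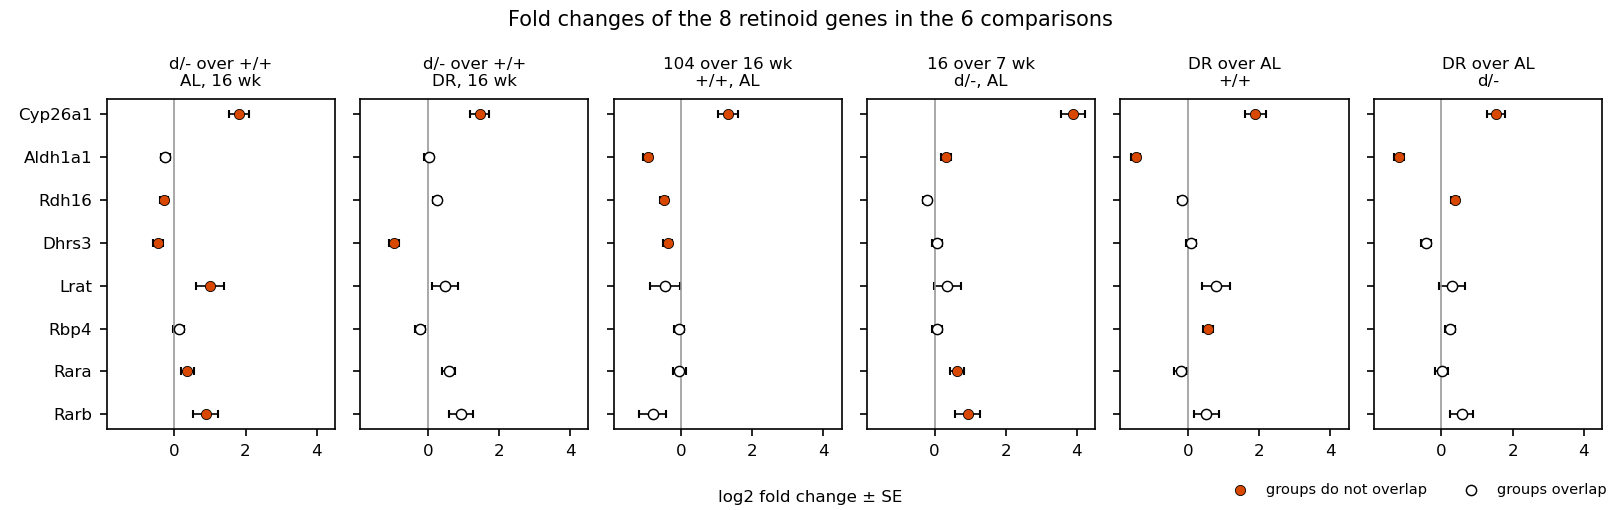
Log2 fold change ± SE of the 8 genes in the 6 comparisons, each panel titled with the group on top of the ratio first. Filled points mark groups of 4 libraries that do not overlap, and Cyp26a1 is filled and right of 0 in every panel.

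In a bulk sample, fewer cells of a type and less RNA per cell cannot be told apart. Markers of the hepatocyte zones are therefore given beside Cyp26a1. For scale, the share of all genes that passed edgeR's test in either direction was 9.94% in mutants over wild types on free feeding and 18.3% on restriction. For age it was 10.1% in wild types and 0.686% in mutants. For restriction over free feeding it was 13.6% in wild types and 11.2% in mutants. Among 18 markers of hepatocytes around the central vein, 5 rose and 0 fell in mutants over wild types on free feeding, and 9 rose and 1 fell on restriction. For 104-week over 16-week wild types 2 rose and 0 fell, and for 16-week over 7-week mutants, where the log2 fold change of Cyp26a1 was largest, 0 rose and 1 fell. With restriction 2 rose and 0 fell in wild types, and 3 rose and 3 fell in mutants. Their summed level was 7087 to 11058 CPM in restricted mutants, 7675 to 9770 CPM in freely fed 16-week mutants, 7758 to 10075 CPM in 7-week mutants, 4996 to 9255 CPM in restricted wild types, 5849 to 8155 CPM in 104-week wild types and 6495 to 7158 CPM in freely fed 16-week wild types.

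Markers of hepatocytes around the portal vein had their highest mean summed level in the restricted mutants, where Cyp26a1 was also highest. Of 13 such markers, 7 rose and 2 fell in restricted mutants over restricted wild types, and 6 rose and 2 fell in restricted over freely fed mutants. Their summed level was 16408 to 20714 CPM in restricted mutants, against 10218 to 12381 CPM in restricted wild types and 10088 to 12975 CPM in freely fed 16-week mutants, without overlap. It was 13066 to 17250 CPM in 7-week mutants, where Cyp26a1 was lowest, 11028 to 15385 CPM in 104-week wild types and 11273 to 13522 CPM in freely fed 16-week wild types. In the other comparisons 1 rose and 2 fell in mutants over wild types on free feeding, 0 rose and 1 fell with age in wild types and in mutants, and 0 rose and 2 fell with restriction in wild types. None of the markers of either zone was at 0 throughout a group. Their part in the Cyp26a1 levels was not tested.

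The other 2 CYP26 genes did not pass the test in any comparison. Cyp26b1, which also clears retinoic acid, had 0.409 to 6.38 CPM in restricted mutants, 2.27 to 5.36 CPM in freely fed 16-week mutants and 0.667 to 3.79 CPM in freely fed 16-week wild types. Its log2 fold change in mutants over wild types on free feeding was 0.98 ± 0.80 (SE, edgeR adjusted p = 0.503). Cyp26c1, the third family member, lies 4.4 kb upstream of Cyp26a1 and had at most 0.949 CPM in any library. For 16-week over 7-week mutants its log2 fold change was 2.41 ± 0.73 (edgeR adjusted p = 0.129), from 0.252 to 0.641 CPM at 16 weeks and 0 to 0.262 CPM at 7 weeks. Both were looked up after the values were seen.

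Rara (ENSMUSG00000037992, chr11:98927818-98974942, plus strand) encodes the retinoic acid receptor alpha. It was highest in the restricted mutants (18.7, 12.8, 12.5 and 10.7 CPM) and freely fed 16-week mutants (12.8, 13.4, 13.2 and 14.9 CPM). The 7-week mutants had 7.42 to 10.9 CPM, restricted wild types 7.41 to 11.8 CPM, 104-week wild types 6.73 to 12.1 CPM and 16-week freely fed wild types 9.28 to 11.8 CPM. Freely fed 16-week mutants did not overlap with freely fed wild types of that age (log2 fold change 0.37 ± 0.19, SE) or with 7-week mutants (0.63 ± 0.19). On restriction the log2 fold change of Rara for mutant over wild type was 0.59 ± 0.19, with overlap. For diet its log2 fold change was 0.01 ± 0.19 in mutants and -0.21 ± 0.19 in wild types, and both pairs of groups overlapped.

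Rarb (ENSMUSG00000017491, chr14:16430839-16819156, minus strand), the receptor beta, had low counts. Restricted mutants had 2.33, 2.36, 5.55 and 5.25 CPM, freely fed 16-week mutants 2.14, 2.85, 2.56 and 2.80 CPM and 7-week mutants 1.57, 0.997, 1.54 and 1.33 CPM. Restricted wild types had 2.47, 1.00, 3.08 and 1.46 CPM, 104-week wild types 0.748, 0.712, 1.21 and 0.509 CPM, and 16-week freely fed wild types 1.00, 1.60, 1.68 and 1.37 CPM. The freely fed 16-week mutants lay above the freely fed 16-week wild types (log2 fold change 0.88 ± 0.35, SE) and above the 7-week mutants (0.93 ± 0.35) without overlap. Restricted groups were spread widely and overlapped, with a log2 fold change of 0.93 ± 0.33 for mutant over wild type. For 104-week over 16-week wild types the log2 fold change of Rarb was -0.81 ± 0.39, with overlap, against 1.31 ± 0.29 for Cyp26a1. The lowest library held 7 counts.

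Rarb values carry a doubt of assignment. Its exons overlap those of Top2b, a topoisomerase gene on the opposite strand, which shares 54.1% of the 50-base words of Rarb transcripts, and the strand setting of the counting is not given in the sources used here. Top2b was lower in mutants than in wild types on restriction (48.2 ± 2.24 CPM in mutants and 62.6 ± 12.4 CPM in wild types, SD, n = 4 each, edgeR adjusted p = 0.0278). Its log2 fold change was -0.29 ± 0.12 in mutants over wild types on free feeding and -0.08 ± 0.12 in 16-week over 7-week mutants, the last smaller than its error. The part of Top2b reads in the Rarb values was not tested.

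Lrat (ENSMUSG00000028003, chr3:82892579-82903973, minus strand), which esterifies retinol for storage, also had low counts. Restricted mutants had 2.04, 4.83, 4.03 and 2.66 CPM, freely fed 16-week mutants 3.15, 3.08, 2.28 and 2.61 CPM and 7-week mutants 2.73, 2.16, 2.20 and 1.61 CPM. Restricted wild types had 1.04, 1.65, 5.27 and 1.84 CPM, 104-week wild types 0.665, 1.42, 0.808 and 1.16 CPM, and 16-week freely fed wild types 0.834, 1.46, 1.86 and 1.44 CPM. Freely fed 16-week mutants lay above freely fed 16-week wild types without overlap (log2 fold change 0.99 ± 0.39, SE). Restricted wild-type replicate 3 decided the restricted values. Without it the log2 fold change of mutant over wild type on restriction was 1.18 in place of 0.48, and that of restriction over free feeding in wild types was 0.10 in place of 0.80. The effect of diet in mutants minus that in wild types changed sign, to 0.19 without it, in place of -0.51.

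Lrat is a marker of stellate cells, so the other stellate genes are given beside it. Of 22 stellate markers, 1 rose and 0 fell in mutants over wild types on free feeding, with summed levels of 280 to 519 CPM in mutants and 255 to 436 CPM in wild types. On restriction 0 of the 22 passed the test by edgeR, with sums of 360 to 518 CPM in mutants and 371 to 506 CPM in wild types. For restriction over free feeding 2 rose and 2 fell in wild types (median log2 fold change 0.50), and 2 rose and 0 fell in mutants (0.18). Among all genes tested, 9.94% passed between genotypes on free feeding and 18.3% on restriction. For diet it was 13.6% in wild types and 11.2% in mutants. The part of stellate cell number in the Lrat level was not tested.

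Rbp4 (ENSMUSG00000024990, chr19:38116629-38125281, minus strand), the plasma carrier of retinol, had its highest mean in restricted wild types. Restricted wild types had 4587, 4245, 3575 and 4433 CPM, against 3161, 2641, 2624 and 3034 CPM in freely fed 16-week wild types, a log2 fold change of 0.56 ± 0.14 (SE) without overlap. Restricted mutants had 4591, 3550, 3220 and 3177 CPM, against 3468, 3139, 2997 and 2807 CPM in freely fed mutants, and these groups overlapped (0.23 ± 0.14). The 7-week mutants and the 104-week wild types, at 2989 ± 229 and 2743 ± 571 CPM (SD, n = 4 each), overlapped with the freely fed groups of 16 weeks.

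Rdh16 (ENSMUSG00000069456, chr10:127801152-127846565, plus strand), a retinol dehydrogenase of the endoplasmic reticulum, varied least, 1.47-fold between the highest and lowest group means. Restricted mutants had 163, 145, 180 and 159 CPM, against 110, 129, 136 and 123 CPM in freely fed 16-week mutants (log2 fold change 0.38 ± 0.11, SE, no overlap). In wild types the restricted libraries had 119 to 164 CPM and the freely fed ones 143 to 161 CPM, a log2 fold change of -0.18 ± 0.11. The effect of diet in mutants minus that in wild types was 0.56 ± 0.15 (SE). The 104-week wild types, at 106 to 115 CPM, lay below the 16-week wild types without overlap (-0.48 ± 0.11). Rdh16 shares 15.1% of its 50-base words with other genes, most of them with Rdh9, so part of its counts may not be its own.

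Dhrs3 (ENSMUSG00000066026, chr4:144892827-144928209, plus strand), which reduces retinal back to retinol, was lower in mutants on both diets. Restricted mutants had 33.8, 30.4, 49.7 and 41.5 CPM, against 83.7, 77.3, 79.7 and 61.6 CPM in restricted wild types (log2 fold change -0.96 ± 0.14, SE). Freely fed 16-week mutants had 44.7, 59.9, 51.3 and 53.3 CPM, against 71.5, 71.5, 72.8 and 71.1 CPM in freely fed wild types (-0.46 ± 0.14). Neither pair of groups overlapped. The 104-week wild types had 52.9, 51.6, 50.6 and 64.6 CPM, below the 16-week wild types without overlap (-0.39 ± 0.14), and the 7-week mutants had 45.3 to 57.6 CPM. For diet the log2 fold change of Dhrs3 was -0.43 ± 0.14 in mutants and 0.08 ± 0.14 in wild types, and both pairs of groups overlapped.

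Aldh1a1 (ENSMUSG00000053279, chr19:20492715-20643465, plus strand), which makes retinoic acid from retinal, followed diet in the direction opposite to Cyp26a1. Restricted mutants had 544, 469, 676 and 613 CPM, against 1487, 1332, 1178 and 1281 CPM in freely fed mutants, a log2 fold change of -1.20 ± 0.13 (SE). Restricted wild types had 456, 708, 557 and 548 CPM, against 1783, 1459, 1442 and 1622 CPM in freely fed wild types (-1.48 ± 0.13). Between the restricted genotypes the log2 fold change was 0.02 ± 0.13 for mutant over wild type, smaller than its error. The 104-week wild types had 798, 704, 872 and 905 CPM, below the 16-week wild types without overlap (-0.94 ± 0.13). The 16-week mutants lay above the 7-week mutants (1023 to 1104 CPM), with a log2 fold change of 0.32 ± 0.13. Aldh1a1 shares 6.54% of its 50-base words with its paralog Aldh1a7.

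**Figure D4:**
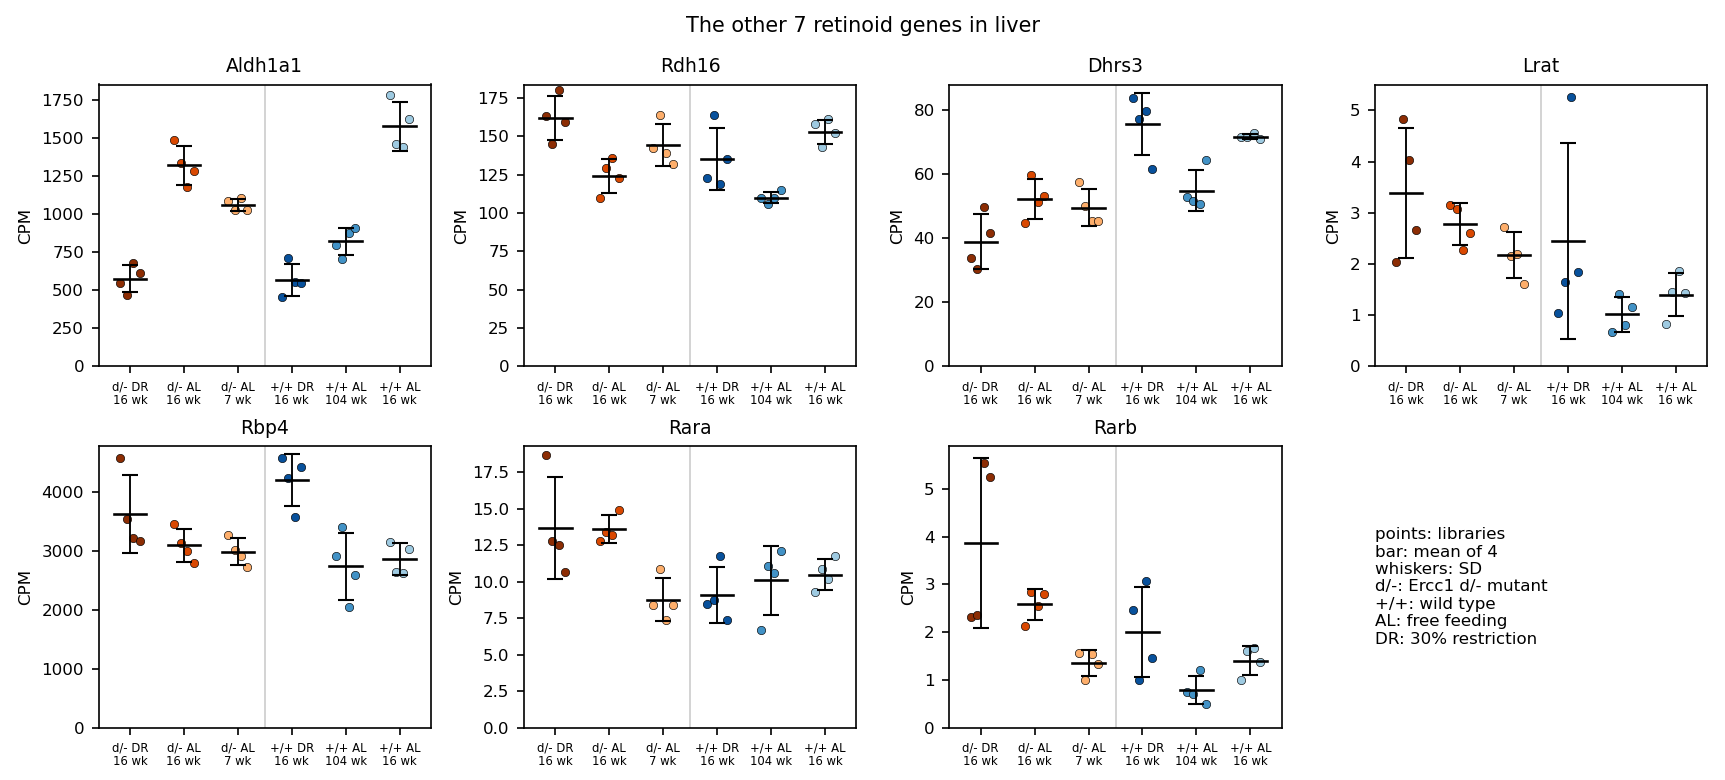
CPM (linear axes from 0) of the other 7 genes in each library, with the mean and SD of 4 libraries per group, mutants left of the line and wild types right. Aldh1a1 is low in both restricted groups, Dhrs3 is low in the restricted mutants, and Lrat replicate 3 of the restricted wild types stands at 5.27 CPM.

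Per kilobase of exon the genes can be set beside each other only roughly. The length was that of the merged exons of all annotated transcripts of a gene, which can exceed that of the transcript expressed. In restricted mutants the mean level was 2706 CPM per kb for Rbp4, 116 for Aldh1a1, 26.1 for Rdh16, 19.8 for Cyp26a1, 13.3 for Dhrs3, 3.14 for Rara, 0.735 for Rarb and 0.634 for Lrat. In freely fed 16-week wild types it was 2133 CPM per kb for Rbp4, 319 for Aldh1a1, 24.6 for Rdh16, 24.5 for Dhrs3, 2.41 for Rara, 1.94 for Cyp26a1, 0.268 for Rarb and 0.262 for Lrat. Cyp26a1 stood above Dhrs3 in the restricted mutants and below Rara in the freely fed wild types.

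Counted over the 8 genes, the groups did not overlap for 6 genes in mutants over wild types on free feeding, with Cyp26a1, Rara, Rarb and Lrat higher and Dhrs3 and Rdh16 lower; among all genes tested the share was 22.5%. Scaled to total counts alone, a setting added after the data were seen, Rdh16 overlapped in this comparison. On restriction it was 2 genes (Cyp26a1 higher, Dhrs3 lower), against 15.8% of all genes. For 104-week over 16-week wild types it was 4 genes, Cyp26a1 higher and Dhrs3, Aldh1a1 and Rdh16 lower, against 16.9%, and Dhrs3 overlapped under total-count scaling. For 16-week over 7-week mutants it was 4 genes, all higher (Cyp26a1, Rara, Rarb and Aldh1a1), against 12.4% of all genes in either direction and 5.94% higher. For restriction over free feeding it was 3 genes in wild types (Cyp26a1 and Rbp4 higher, Aldh1a1 lower), against 17.2%. In mutants it was also 3 genes (Cyp26a1 and Rdh16 higher, Aldh1a1 lower), against 17.3%. The genes were chosen with these values known, so nothing is read from these counts.

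Around the 8 genes, 89 further genes of the retinoid pathway were listed by role, of which 68 passed the filter. These were tested with edgeR's quasi-likelihood test, with Benjamini-Hochberg adjusted p-values over all 12690 genes and a threshold of 0.05. Of the 68, 44 passed in at least 1 of the 6 comparisons and 24 in none. The list was chosen with earlier results of these data known. Its shares beside those of all genes are therefore a description, and nothing is read from them. The p-values of its genes carry the same limit.

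In mutants over wild types on free feeding, enzymes that make, release or break down retinoids moved both ways. Of the 68 genes 14 passed (20.6%, against 9.94% of all genes), 7 higher and 7 lower, and the median log2 fold change was -0.17, against 0.02 over all genes. Bco1, which cleaves beta-carotene to retinal, averaged 15.0 ± 2.02 CPM in mutants and 7.47 ± 1.16 CPM in wild types (SD, n = 4 each, edgeR adjusted p = 0.000905). Rdh5, a retinol dehydrogenase, averaged 49.1 ± 3.81 CPM in mutants and 26.3 ± 5.57 CPM in wild types (SD, n = 4 each, edgeR adjusted p = 5.93e-05). The carboxylesterases Ces1e and Ces1d, of a family that includes retinyl ester hydrolases, fell by 1.60 ± 0.17 and 1.20 ± 0.23 on the log2 scale (edgeR adjusted p = 7.96e-07 and 0.000916). They belong to a cluster of similar genes that may share reads.

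Cyp2c39, a mouse P450 that can hydroxylate retinoic acid, fell by 2.63 ± 0.21 in the same comparison (edgeR adjusted p = 2.38e-08), with 63.0, 59.4, 62.9 and 54.5 CPM in mutants and 408, 367, 325 and 387 CPM in wild types. Cyp2c genes resemble each other and may share reads. Lpl, the lipoprotein lipase, had a log2 fold change of 1.67 ± 0.44 (edgeR adjusted p = 0.0145), which became 0.0563 without wild-type replicate 2 and 0.0526 without replicate 3. Adh7, a retinol-oxidising alcohol dehydrogenase, had -0.69 ± 0.20 (edgeR adjusted p = 0.0285), a call lost when any 1 of 6 of the 8 libraries was left out. None of the 13 tested receptors and cofactors passed the edgeR test. Of 11 tested genes listed as retinoic acid targets in other settings 1 passed (9.09%, against 9.94% of all genes), and it was higher. A fit of the compared groups alone called 26 of the list and 2202 of all genes, against 1262 of all genes in the fit of all groups.

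In restricted mutants over restricted wild types, 30 of the 68 genes passed (44.1%, against 18.3% of all genes), 16 higher and 14 lower, with a median of -0.13, against -0.03 over all genes. A fit of the restricted groups alone called 10 of the list and 877 of all genes, against 2320 in the fit of all groups. Genes of storage and release passed most often by share, 7 of 8, with 4 higher and 3 lower. Of 11 tested genes listed as retinoic acid targets in other settings 4 passed (36.4%), 2 higher and 2 lower. Lpl had 8.93, 20.9, 14.9 and 14.0 CPM in mutants, against 0.788 to 4.37 CPM in wild types (log2 fold change 2.59 ± 0.40, SE, edgeR adjusted p = 8.01e-05). Akr1b7, an aldo-keto reductase, had 11.6 to 31.8 CPM in mutants and 0.788 to 4.13 CPM in wild types (edgeR adjusted p = 0.0141).

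Ces1d and Ces1e fell on restriction as well, by 1.43 ± 0.23 and 1.34 ± 0.17 (edgeR adjusted p = 9.69e-05 and 6.09e-06). Dhrs7, a short-chain dehydrogenase, averaged 24.5 ± 3.03 CPM in mutants and 41.0 ± 5.90 CPM in wild types (SD, n = 4 each, edgeR adjusted p = 0.000667). Dhrs9, which oxidises retinol, had 0.350, 1.82, 3.74 and 2.66 CPM in mutants and 0.380 to 0.578 CPM in wild types (edgeR adjusted p = 0.0266), and the call was lost when any 1 of 5 libraries was left out. Rdh11, a retinal reductase, had a log2 fold change of -0.67 ± 0.21 (edgeR adjusted p = 0.0300), lost when any 1 of 4 libraries was left out and in the fit of the restricted groups alone. Without wild-type replicate 3 it was -0.46 (edgeR adjusted p = 0.134).

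Markers of macrophages moved with these comparisons. Of 12 macrophage and Kupffer cell markers 8 rose and 0 fell on free feeding, with sums of 185 to 368 CPM in mutants and 121 to 182 CPM in wild types. On restriction 12 rose and 0 fell, with sums of 290 to 401 CPM in mutants and 97.2 to 171 CPM in wild types. Among all genes tested, 5.10% rose and 4.85% fell on free feeding, and 9.58% rose and 8.70% fell on restriction. Lpl and Fabp5 are also expressed by macrophages. Fabp5 passed in neither comparison, with a log2 fold change of 0.47 ± 0.41 on free feeding (SE, edgeR adjusted p = 0.535) and 0.19 ± 0.40 on restriction (edgeR adjusted p = 0.797). The part of macrophages in the Lpl and Fabp5 levels was not tested.

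In 104-week over 16-week wild types, 3 of 6 tested genes of retinoid binding, transport and uptake rose by the edgeR test and 0 fell, and 1 of 8 genes of storage and release fell. Of the 68 genes 17 passed (25.0%, against 10.1% of all genes), 7 higher and 10 lower, with a median of -0.03, against 0.02. Fabp5, a fatty acid carrier that can deliver retinoic acid to a nuclear receptor, had 63.1, 44.8, 69.1 and 21.5 CPM at 104 weeks, against 5.06, 11.9, 7.06 and 5.62 CPM at 16 weeks (log2 fold change 2.75 ± 0.42, SE, edgeR adjusted p = 0.000175). Ces1d had 318 to 487 CPM at 104 weeks and 1395 to 1833 CPM at 16 weeks (-1.95 ± 0.23, edgeR adjusted p = 4.35e-06). Rxrg, an RXR receptor, averaged 2.13 ± 0.395 CPM at 104 weeks and 5.89 ± 0.639 CPM at 16 weeks (SD, n = 4 each, edgeR adjusted p = 0.00916). Cyp2c39 fell by 0.86 ± 0.20 (edgeR adjusted p = 0.00646).

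The Egr1 and Akr1b7 calls of that comparison rested on single libraries. Egr1, an immediate early gene, was at 426 CPM in 104-week replicate 1 and at 1.34 to 12.0 CPM in the others of that age, against 1.44 to 7.33 CPM at 16 weeks. Its log2 fold change was 5.03 with all libraries (edgeR adjusted p = 0.0220) and 0.83 without that replicate (edgeR adjusted p = 0.608). Akr1b7 was at 19.9 CPM in 104-week replicate 3 and at most 0.582 CPM in the others, and its log2 fold change of 3.60 (edgeR adjusted p = 0.0358) became -0.17 without it (edgeR adjusted p = 0.92). Pdk4, a kinase that restrains glucose oxidation, fell by 2.36 ± 0.69 (edgeR adjusted p = 0.0303). It had 0.437 to 0.791 CPM at 104 weeks, from 6 to 10 counts per library, and 2.86 to 3.23 CPM at 16 weeks, without overlap. The Pdk4 call was lost when any 1 of 7 of the 8 libraries was left out and with no filter on low counts. The Egr1 call was also lost in the fit of the compared groups alone, and that of Akr1b7 with no filter. Of the list, 9 genes were called without 16-week replicate 3 and 11 without 104-week replicate 1. Of the 12 macrophage markers 5 rose and 0 fell at 104 weeks, with sums of 178 to 343 CPM at 104 weeks and 121 to 182 CPM at 16 weeks; their part was not tested.

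In 16-week over 7-week mutants 1 of the 68 genes passed (1.47%, against 0.686% of all genes). Aox3, an aldehyde oxidase that can oxidise retinal, had 302, 414, 387 and 451 CPM at 16 weeks, against 754, 919, 942 and 817 CPM at 7 weeks (log2 fold change -1.14 ± 0.27, SE, edgeR adjusted p = 0.0451). The groups did not overlap, but the call was lost when any 1 of the 8 libraries was left out, at an edgeR adjusted p of up to 0.169, and with no filter. The 1 call became 7 in a fit of the compared groups alone and 3 by DESeq2. Of the 4 genes of retinoic acid breakdown outside the 8, none passed by edgeR. Their median log2 fold change was 0.83, against 0.0039 over all genes, but they moved both ways. Cyp2c39 had 54.5 to 63.0 CPM at 16 weeks and 77.6 to 136 CPM at 7 weeks (-0.79 ± 0.20, edgeR adjusted p = 0.0690), without overlap. Cyp26b1, Cyp26c1 and Cyp2s1 had 0.43 ± 0.78, 2.41 ± 0.73 and 1.23 ± 0.48. Their means over the 8 libraries were 3.36, 0.287 and 0.518 CPM.

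With restriction, 3 of the 4 tested genes listed under the role of retinal to retinoic acid fell in wild types and 3 fell in mutants. The role is that of the list, and activity on retinal was not measured for any of them. In restricted over freely fed wild types 15 of the 68 genes passed (22.1%, against 13.6% of all genes), 6 higher and 9 lower, with a median of 0.16, against 0.04. In restricted over freely fed mutants 18 passed (26.5%, against 11.2%), 11 higher and 7 lower, with a median of 0.11, against 0.0027. Aox3 had 67.0, 81.7, 75.6 and 29.3 CPM in restricted wild types, against 359, 338, 577 and 534 CPM in freely fed ones (log2 fold change -2.83 ± 0.28, SE, edgeR adjusted p = 4.32e-07). In mutants it had 70.5, 70.0, 141 and 113 CPM on restriction, against 302, 414, 387 and 451 CPM on free feeding (-1.98 ± 0.27, edgeR adjusted p = 2.50e-05).

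Aox1, the neighbouring aldehyde oxidase, fell by 1.48 ± 0.32 in wild types (edgeR adjusted p = 0.00367) and by 1.14 ± 0.32 in mutants (edgeR adjusted p = 0.0214), where the fit of the compared groups alone, and leaving out any 1 of 3 of the 8 libraries, ended the call. Aldh1a7, the paralog of Aldh1a1, fell by 1.46 ± 0.16 in wild types (edgeR adjusted p = 8.97e-07) and by 0.88 ± 0.16 in mutants (edgeR adjusted p = 0.000442), and it can share reads with Aldh1a1. Rdh13, a mitochondrial retinal reductase, was higher in restricted wild types (8.10 ± 1.88 CPM, against 4.20 ± 0.557 CPM on free feeding, SD, n = 4 each, edgeR adjusted p = 0.00205). Rarres1, named for its response to retinoic acid in other cells, fell by 1.57 ± 0.23 in wild types (edgeR adjusted p = 7.36e-05). Cebpe, a myeloid transcription factor, fell to 0.987 ± 0.483 CPM on restriction, against 3.45 ± 1.13 CPM on free feeding (SD, n = 4 each, edgeR adjusted p = 0.00167).

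Further calls in wild types were close to the threshold. Bco1 had a log2 fold change of 0.58 ± 0.19 (edgeR adjusted p = 0.0412), lost when any 1 of 6 libraries was left out, with no filter and in the fit of the compared groups alone. Cyp2c39 had 0.75 ± 0.20 (edgeR adjusted p = 0.0134), with an edgeR adjusted p = 0.0507 without restricted replicate 1. Ppard, a nuclear receptor that retinoic acid can bind, was at 45.0 CPM in restricted replicate 3 and 4.94 to 9.12 CPM in the others. Its log2 fold change was 1.50 (edgeR adjusted p = 0.0310) and 0.24 without that library (edgeR adjusted p = 0.506), and the call was also lost with no filter and in the fit of the compared groups alone.

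In mutants 4 of the 8 genes of storage and release rose with restriction by the edgeR test and 0 fell. Of the 20 tested retinol and retinal oxidoreductases 3 rose and 2 fell. Pnpla2, the adipose triglyceride lipase, had 306, 205, 137 and 157 CPM on restriction, against 46.6 to 70.1 CPM on free feeding (log2 fold change 1.89 ± 0.27, SE, edgeR adjusted p = 3.53e-05). Akr1b7 had 11.6, 31.8, 21.9 and 17.8 CPM on restriction, against 0.356 to 1.37 CPM on free feeding (edgeR adjusted p = 0.00427). Dhrs9 had 0.350 to 3.74 CPM, against 0 to 0.342 CPM (edgeR adjusted p = 0.00481).

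Cyp2c39 and Pnpla2 differed between the genotypes in their response to diet. Cyp2c39 had 597, 551, 562 and 555 CPM in restricted mutants, against 63.0, 59.4, 62.9 and 54.5 CPM in freely fed mutants (log2 fold change 3.24 ± 0.21, SE, edgeR adjusted p = 2.23e-10). The diet effect in mutants minus that in wild types was 2.49 ± 0.28 (edgeR adjusted p = 1.33e-05). For Pnpla2 it was 1.54 ± 0.37 (edgeR adjusted p = 0.0353), lost when any 1 of 10 of the 16 libraries was left out, with no filter and in the fit of the compared groups alone. These were the 2 genes of the list that passed the test of that difference (2.94%, against 1.50% of all genes). Cyp2c39 and Cyp26a1, both credited with breaking down retinoic acid, lay on opposite sides between freely fed mutants and wild types, with Cyp26a1 higher and Cyp2c39 lower in mutants, and both were higher in restricted than in freely fed mutants.

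**Figure D5:**
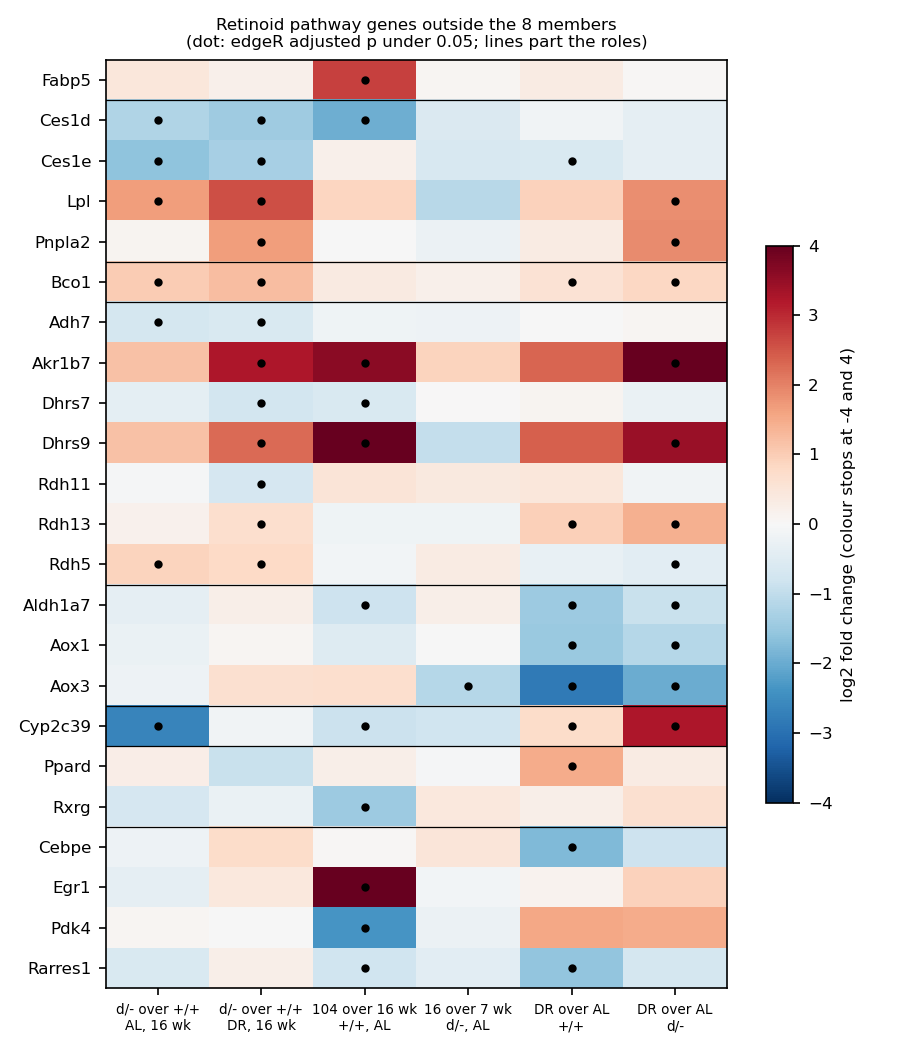
Log2 fold changes (colour) of the retinoid genes outside the 8 that are described here, in rows grouped by role, over the 6 comparisons in columns; a dot marks an edgeR adjusted p under 0.05. Ces1d and Ces1e are called in both comparisons of mutant over wild type, and Aox3 is called in both comparisons of diet.

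Across the 24 libraries, the genes whose log2 CPM was most like that of Cyp26a1 were Cxxc5 (Pearson r = 0.792), Cdc25a (0.791), N4bp3 (0.790), Id2 (0.789) and Tuba3a (0.788), of 12352 ranked. The most opposite were Prok1 (-0.827), Itfg1 (-0.826), Iigp1 (-0.799) and Cyp4a12b (-0.796). The points share the 6 groups, and with group means removed r for these 9 genes lay between -0.241 and 0.371. Among the other 7 members r was 0.515 for Rara, 0.471 for Rarb, 0.383 for Rbp4, 0.266 for Lrat, 0.00188 for Rdh16, -0.220 for Dhrs3 and -0.561 for Aldh1a1. For Cyp26c1, with at most 0.949 CPM in any library, r was 0.768, at rank 10 from the highest. For Cyp26b1 it was -0.0242. Of the 5 genes of highest and 5 of lowest r, 4 stayed in the list by Spearman's rho.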

How the data were processed

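The authors deposited raw counts of reads per gene for 24 liver libraries, whole numbers that were not normalized. The tools named, per the submitters' processing notes, were featureCounts (Subread 1.6.4), STAR 2.7.0f and Trimmomatic 0.39, with the GRCm38.p6 build; the settings for strand, multi-mapped reads and annotation were not given in the sources used here. From the counts, CPM was computed with edgeR 4.0.16 (R 4.3.3) and TMM factors. Genes were kept by filterByExpr (12690 of 22429), and group means were fitted to all 24 libraries with edgeR's robust quasi-likelihood test (18 residual degrees of freedom), with Benjamini-Hochberg adjustment and a threshold of 0.05. The fit was tested on simulated data first. Log2 CPM used a prior count of 2. Totals of 13269792 to 20624803 counts set the precision, and low-count genes carry more counting error.

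The 8 genes, the pathway list and the marker lists were chosen with earlier results of these data known. Named pathway genes were, per comparison, up to 4 called genes with the largest positive and up to 4 with the largest negative log2 fold change and a mean of at least 1 CPM; for Cyp26a1, the 5 genes of highest and the 5 of lowest Pearson r. Some genes chosen by these rules are not reported here. Samples are numbered within a group, but the labels do not say whether each came from its own animal; a p-value then measures only the spread between the samples given, which may be technical. Gene positions and shared 50-base words came from GENCODE M21 and promoters from RefSeq, both on GRCm38. Alternatives were RLE size factors, no filter, DESeq2 1.42.0, a fit of the compared groups alone, a replicate block, each library left out in turn and, added after seeing the data, total-count scaling.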

Additional observations from a re-analysis of the deposited data

Results flagged for a closer look

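Within groups of 4, 198 groups of 33 genes were checked for a library far from the other 3, and 11 were found; chance alone gives about 1 in 20. Of the 8 retinoid genes, Dhrs3 was the only one among them, at 64.6 CPM in replicate 4 of the 104-week wild types, against 50.6 to 52.9 CPM in the other 3. Among pathway genes in mutants, Bco1 stood at 36.6 CPM in restricted replicate 2 and Rarres1 at 40.2 CPM in restricted replicate 1. Rdh11 was low in freely fed 16-week mutant replicate 4 (7.37 CPM) and high in restricted wild-type replicate 3 (19.2 CPM). Aldh1a7 at 365 CPM in 7-week mutant replicate 2 differed little from the 371 CPM of the others.

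Egr1 was flagged in 3 groups, with 11.0 CPM in restricted mutant replicate 3, 1.33 CPM in 7-week mutant replicate 2 and 426 CPM in 104-week wild-type replicate 1. Akr1b7 was at 19.9 CPM in 104-week wild-type replicate 3, and Ppard at 45.0 CPM in restricted wild-type replicate 3. The diet effect in mutants minus that in wild types passed the edgeR test for Pnpla2, at 1.54 on the log2 scale, and for Cyp2c39, at 2.49.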

How the results depend on the processing

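With RLE size factors no count of calls and no Cyp26a1 value moved by more than its limit. Under the other settings the counts that moved by over 1.5 times were as follows. A fit of the compared groups alone gave 2202 genes and 26 of the list for mutants over wild types on free feeding (1262 and 14 as reported), 877 and 10 on restriction (2320 and 30), 568 and 7 for 16-week over 7-week mutants (87 and 1), 986 genes for diet in wild types (1726), and 126 and 1 for the difference of the diet effects (190 and 2). DESeq2 gave 201 and 3 for 16-week over 7-week mutants and 388 genes for the difference of the diet effects. With no filter these 2 comparisons gave 0 and 1 of the list. The causes were not tested.

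Leaving out each library in turn gave 871 to 1082 genes and 11 to 14 of the list for mutants over wild types on free feeding, 1804 to 2256 and 20 to 28 on restriction, 792 to 1533 and 9 to 18 for age in wild types, 29 to 76 and 0 to 1 for age in mutants, 1051 to 2009 and 11 to 19 for diet in wild types, 1053 to 1414 and 14 to 16 for diet in mutants, and 109 to 225 and 1 to 3 for the difference of the diet effects. Over all genes, the lowest counts came without freely fed wild-type replicate 3 for age in wild types, 7-week mutant replicate 3 for age in mutants, and restricted wild-type replicate 4 for diet in wild types. The list count of 0 for age in mutants came with any 1 of 6 of the 8 libraries left out, and that of 11 for diet in wild types without freely fed wild-type replicate 1. Cyp26a1 log2 fold changes ranged over 1.60 to 2.05, 1.26 to 1.67, 1.09 to 1.54, 3.74 to 3.99, 1.69 to 2.13 and 1.34 to 1.69 in the same order, and -0.60 to -0.14 for the difference of the diet effects. For Akr1b7 and age in wild types they ranged over -0.17 to 3.98, and the value reversed, to -0.17, without 104-week replicate 3.

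Deviations of same-numbered samples had correlations of -0.239 to 0.316 over all comparisons, and the reported fit did not pair the samples by number. Correlations of this size cannot show whether same-numbered samples shared a batch, and this was not tested. With the replicate block, list calls for 16-week over 7-week mutants were 2 in place of 1, and the calls of Akr1b7 and Egr1 for age and of Ppard for diet in wild types were lost (edgeR adjusted p = 0.101, 0.110 and 0.0538). With no filter, 6 named pathway calls were lost: Akr1b7 (edgeR adjusted p = 0.0639) and Pdk4 (0.0563) for age in wild types, Aox3 (0.0750) for age in mutants, Bco1 (0.0528) and Ppard (0.0603) for diet in wild types, and Pnpla2 (0.0677) for the difference of the diet effects. In a fit of the compared groups alone 6 were lost: Rdh11 (edgeR adjusted p = 0.142) for the restricted genotypes, Egr1 (0.181) for age in wild types, Bco1 (0.0641) and Ppard (0.217) for diet in wild types, Aox1 (0.0784) for diet in mutants, and Pnpla2 (0.0766) for the difference of the diet effects. DESeq2 and RLE size factors ended none of the named calls they could test. Of the 10 genes most like or unlike Cyp26a1, 4 remained by Spearman's rho and 4 with total counts.

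Total counts in place of TMM moved the median of all genes by 0.122 for mutants over wild types on restriction and 0.111 for diet in mutants. Under it Rbp4 did not overlap for diet in mutants, Rara changed sign there, and Cyp26a1 averaged 43.0 CPM in restricted mutants and 0.888 CPM in 7-week mutants. Dhrs9 for the restricted genotypes and for diet in mutants, and Akr1b7 for age in wild types, could not be fitted in the compared groups alone, and DESeq2 gave no adjusted p for Egr1. Depth limits Rarb, Lrat and Cyp26c1, and Cyp26a1 in 7-week mutants and freely fed 16-week wild types, with at most 95 counts per library.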
